A study of Mus musculus with 45 samples.

Results

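The loci described here, long noncoding RNA genes and transcribed loci that GENCODE does not name, were followed through the reprogramming of mouse neural progenitors: 7 of the 23575 genes in the deposited table, with 103 of its 276608 transcripts. They were chosen from their measured levels, 5 of them for a large difference between embryonic stem cells and neural progenitors in the libraries of one sequencing chemistry, called R10 here. For the other 2, novelGene_3155 and novelGene_Ahnak_AS, the comparison that named them is not recorded, so their values and calls are description in every comparison. 3 carry GENCODE names: 1700097N02Rik (ENSMUSG00000099474.1), Gm46332 (ENSMUSG00000112819.1) and Gm3764 (ENSMUSG00000097156.7). The other 4 are gene models built by the authors from their long reads: novelGene_3155, and novelGene_Sox9_AS, novelGene_Ncan_AS and novelGene_Ahnak_AS, which lie opposite the genes in their names.

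The study sequenced RNA by nanopore long reads in 45 libraries while progenitors were driven towards induced pluripotent stem cells. The progenitors (NPCs) came from the O4G stem cell line, which carries a GFP reporter of Oct4, and grew in a progenitor medium as day 0. Lines labelled OKMS-Luciferase-AS and OKS-Luciferase-AS carry reprogramming factors induced by doxycycline, with and without Myc, and both carry the Luciferase antisense control. WT progenitors without factors were sampled in progenitor medium and after 2 days in FBS-LIF with doxycycline. Factor cells stayed in FBS-LIF with 1 µg/mL doxycycline up to day 20, or were moved at day 6 to 2i-LIF, a medium with inhibitors that hold the naive state. The stem cell lines O4G, R1 and R1-Clone3 (ESCs, WT) grew in 2i-LIF. The R9 set, direct cDNA of poly(A) RNA, has 22 libraries: 2 ESC, 4 NPC, 13 in FBS-LIF with doxycycline and 3 in 2i-LIF. The R10 set, PCR cDNA, has 23: 7 ESC, 4 NPC, 10 and 2. Each factor line was sampled by 1 library per day, so the time courses carry no replicates within a day.

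Levels are the authors' CPM values, reads scaled to the library total, which scale with the number of reads and not with transcript length. Recovered reads per library ran from 447990 to 1390424 in R9 and from 566599 to 4236442 in R10, so 1 read was worth 0.719 to 2.23 CPM in R9 and 0.236 to 1.76 CPM in R10. A gene at 0 in an R9 library could therefore have had a true level of up to 2.16 to 6.69 CPM (3 reads, counting error only). The labels were checked against marker genes: 6 stem cell genes summed to 12228 to 13613 CPM in the R9 ESC libraries and to 10.8 to 30.4 CPM in the R9 NPC libraries, while the progenitor genes summed to 18 to 23.3 and 3540 to 5962 CPM. In these bulk samples, fewer cells of a type and less RNA per cell cannot be told apart.

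Long noncoding RNAs are transcripts with little or no protein coding capacity. Many are transcribed from the start region of a neighbouring gene, on the opposite strand of a gene, or as hosts of a microRNA whose hairpin is cut out of an intron, and many are limited to few cell types. Gm3764 surrounds the hairpin of miR-9, a microRNA of neural progenitors. Sox9 is a transcription factor of neural stem cells and glia, Ncan encodes the matrix proteoglycan neurocan, and Ahnak encodes a very large scaffold protein of the cell periphery.

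The sequences that carry the structural findings are given with their place on mm10, the GRCm38 assembly. Gm46332 lies on chromosome 12 at 4552543 to 4582757 on the minus strand. One of GENCODE's transcripts, at 4552546 to 4553785, has 3 exons, another reaches 4569538, and the form that led here joins the first exon to the last. The join is shown over the 295 bases of the first and last exons of the former transcript, which are shorter at their outer ends than those of the leading form, with the 20 bases on each side of the junction in capitals. The 162-base middle exon that this form lacks (chr12:4553014-4553175) follows it.
Gm46332 exons 1 and 3: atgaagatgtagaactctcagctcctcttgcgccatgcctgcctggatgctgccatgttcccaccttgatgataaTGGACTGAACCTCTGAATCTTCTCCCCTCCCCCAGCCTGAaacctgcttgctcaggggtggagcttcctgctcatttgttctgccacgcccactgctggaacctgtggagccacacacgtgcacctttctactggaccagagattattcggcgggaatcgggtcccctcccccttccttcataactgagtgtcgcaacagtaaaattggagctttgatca
Gm46332 middle exon: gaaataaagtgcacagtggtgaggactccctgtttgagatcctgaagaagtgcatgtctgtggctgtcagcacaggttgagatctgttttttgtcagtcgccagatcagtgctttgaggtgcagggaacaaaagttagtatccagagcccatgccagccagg

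1700097N02Rik lies on chromosome 17 at 30622421 to 30627815 on the minus strand, and overlaps Glo1 (glyoxalase, same strand) and Dnah8 (an axonemal dynein heavy chain, opposite strand). Its promoter window (chr17:30626856-30627155, minus strand, RefSeq, GRCm38.p6) holds 250 bases before the annotated start. The GENCODE start of Glo1, at 30626871 on the same strand, lies in this window too. The window is shown because part of the RNA measured below started upstream of the annotated start. Gm3764 lies on chromosome 3 at 88206490 to 88229959 on the plus strand. Its window (chr3:88214232-88214531, plus strand) is shown because most of its transcripts began there. Capitals mark matches, on either strand, of 4 motifs that were searched. They are the CCAAT box with the letters CCAAT, the TATA box with TATAAA, the GC box with GGGCGG and the octamer bound by Oct4 with ATGCAAAT, and none overlaps another in these windows.
1700097N02Rik promoter: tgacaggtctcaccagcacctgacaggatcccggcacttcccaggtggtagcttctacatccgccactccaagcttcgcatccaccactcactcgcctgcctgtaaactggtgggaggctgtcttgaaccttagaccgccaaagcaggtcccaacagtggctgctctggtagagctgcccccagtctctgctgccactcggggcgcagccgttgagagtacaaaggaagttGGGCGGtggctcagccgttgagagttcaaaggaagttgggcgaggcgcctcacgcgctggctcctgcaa
Gm3764 promoter: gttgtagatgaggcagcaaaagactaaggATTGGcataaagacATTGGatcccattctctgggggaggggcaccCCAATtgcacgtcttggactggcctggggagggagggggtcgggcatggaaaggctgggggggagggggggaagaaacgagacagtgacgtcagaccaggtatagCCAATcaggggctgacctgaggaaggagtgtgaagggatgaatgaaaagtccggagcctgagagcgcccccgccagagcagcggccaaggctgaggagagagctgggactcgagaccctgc
The first window holds 1 GGGCGG, which 35.7% of 32851 RefSeq promoter windows of the same length also hold. The second holds 2 CCAAT and 2 ATTGG, the same motif on the other strand, found in 37.4% of windows. Neither holds TATAAA (13.6% of windows) or ATGCAAAT (1.74%). RefSeq's table matched 3 of the 7 loci, and G or C made up 60.3% and 59.7% of the bases shown.

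The hairpin of miR-9 (Mir9-1, chr3:88215598-88215686, plus strand) and its mature strand from the 5′ arm show what Gm3764 encloses, with the seed, bases 2 to 8, in capitals.
Mir9-1 hairpin: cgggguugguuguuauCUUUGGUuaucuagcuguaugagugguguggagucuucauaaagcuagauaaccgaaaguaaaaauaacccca
mmu-miR-9-5p: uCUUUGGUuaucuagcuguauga
The Sox9 antisense locus lies on chromosome 11 at 112785144 to 112786174 on the minus strand, within the last exon of Sox9. Its only intron (112785198 to 112785374, 177 bases) is shown with 20 bases of exon on each side, because it falls wholly inside the coding sequence of Sox9. The capitals are the bases at the 2 ends of the intron, GT and AG, which are the usual splice signals on the minus strand.
novelGene_Sox9_AS intron: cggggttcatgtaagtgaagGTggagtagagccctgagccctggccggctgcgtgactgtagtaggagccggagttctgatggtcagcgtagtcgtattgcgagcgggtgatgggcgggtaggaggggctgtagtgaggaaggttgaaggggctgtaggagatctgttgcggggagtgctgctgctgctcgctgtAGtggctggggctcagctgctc

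In R9, 3 loci were silent or nearly so in progenitors and present in stem cells. 1700097N02Rik was at 88.1 and 80.0 CPM in the O4G and R1 ESC libraries of R9, and at 0 in all 4 R9 NPC libraries. That is at least 87.2-fold, taking 3 reads over all NPC libraries as the floor. The log2 difference was 6.41 ± 0.27 (SE; log2(CPM + 1); limma, Benjamini-Hochberg adjusted p = 3.43e-05, 2 against 4 libraries).

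Gm46332 was at 40.7 and 41.0 CPM in the same ESC libraries. Its NPC libraries held 1.35 (OKMS), 3.37 (OKS), 1.34 and 0 CPM (WT), 4 reads in all. The groups did not overlap, with a log2 difference of 4.24 ± 0.58 (limma, adjusted p = 0.00163). novelGene_3155 rested on 7 reads in R9, at 2.84 and 3.72 CPM in ESCs and 0 in the 4 NPC libraries. In R10, which chose 1700097N02Rik and Gm46332, the 3 genes ran from 118 to 321, 125 to 371 and 145 to 345 CPM in 7 ESC libraries.

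Another 3 loci ran the other way. Gm3764 was at 413 (OKMS), 271 (OKS), 162 and 273 CPM (WT) in the R9 NPC libraries and at 0 in both ESC libraries, at least 198-fold lower. Its log2 difference was −8.06 ± 0.36 (limma, adjusted p = 3.85e-05). The Sox9 antisense locus was at 18.8, 43.8, 30.8 and 27.1 CPM in NPCs and at 0 in ESCs, with a difference of −4.90 ± 0.38 (adjusted p = 0.000163). The Ncan antisense locus was at 10.8, 16.9, 12.0 and 7.74 CPM in NPCs and at 0 in ESCs, with a difference of −3.64 ± 0.37 (adjusted p = 0.000479). In all 3 the groups stood apart, though the share of all genes whose groups did so was not computed.

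The Ahnak antisense locus was at 36.0 and 17.7 CPM in R9 ESCs. Its NPC libraries held 0, 0, 2.67 and 3.87 CPM, and the log2 difference was 3.68 ± 0.81, at 3.18 without the O4G library and 4.17 without the R1 library, neither of which passed (limma, adjusted p = 0.160 and 0.0948). All 5 loci that R10 named passed the call in R9, an adjusted p under 0.05 with a log2 difference of at least 1, in a comparison that called 36% of 15746 genes, 17.6% higher and 18.4% lower in ESCs. In R10, where the rule looked, 45.8% of genes were called, and the members' levels there are the choice itself. Where the labels name no separate cultures, p-values measure only the spread between these libraries. Some R9 and R10 libraries carry the same sample name, among them the OKMS and OKS progenitors. Whether they came from the same cultures is not given, so the R9 calls may not be independent of the R10 choice.

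**Figure D1:**
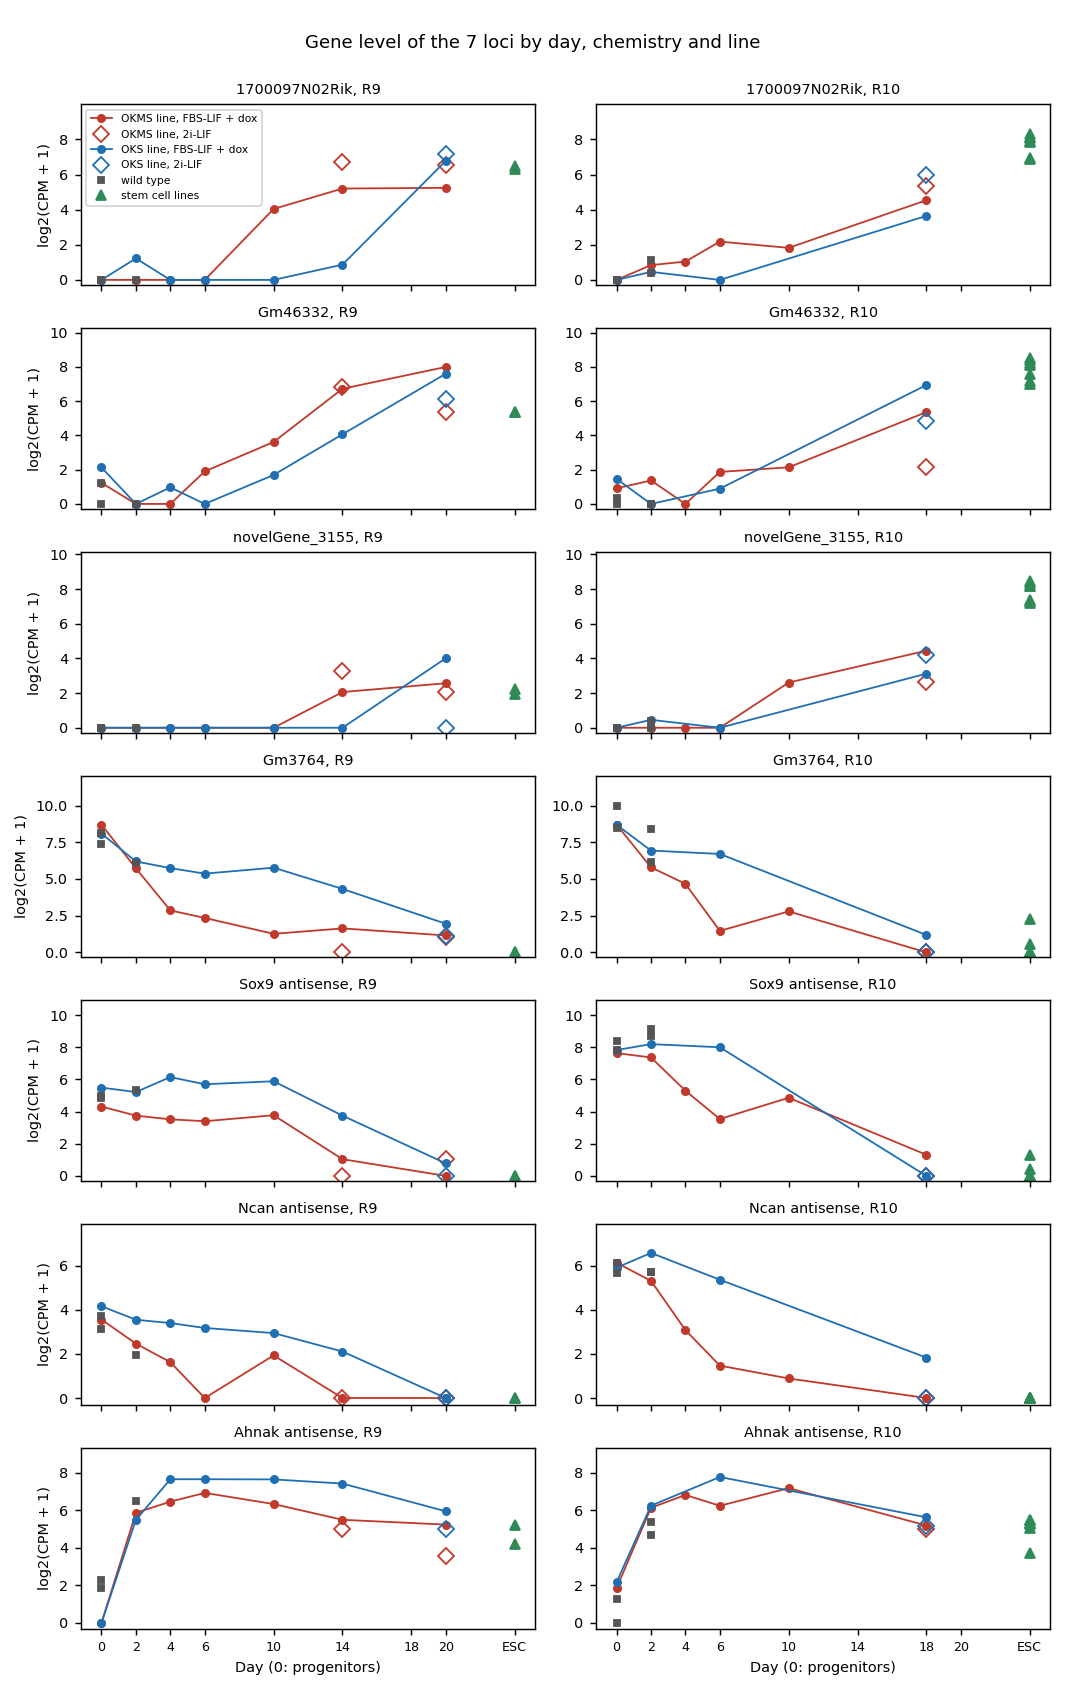
Level of each locus, as log2(CPM + 1), against the day of reprogramming, with R9 on the left and R10 on the right. Red lines are OKMS and blue lines OKS in FBS-LIF with doxycycline, open diamonds are 2i-LIF, grey squares are WT progenitors, and green triangles are stem cell lines. The 3 upper loci are highest at the late days, Gm3764 and the Sox9 and Ncan antisense loci end low, and the Ahnak antisense locus is already high at day 2.

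In FBS-LIF with doxycycline, 1700097N02Rik rose late, and in R9 sooner in the OKMS line than in the OKS line. In the R9 OKMS line it was at 0 on days 0, 2, 4 and 6, then at 15.5 CPM on day 10, 35.9 on day 14 and 36.9 on day 20. The OKS line held 1.34 CPM on day 2, 0 from day 4 to day 10, 0.827 on day 14 and 109 on day 20. The OKS rise thus rests on 1 library at the last day. The test of days 2, 4, 6, 10, 14 and 20 against day 0, with the factor line as a term, did not pass (limma F test, largest difference from day 0 6.01, adjusted p = 0.0527). It passed in 6 of 13 other settings, among them edgeR, a minimum of 5 CPM (adjusted p = 0.0330), median centring (0.00980) and fits without day 10 or day 14. The remaining pass is the R10 fit, whose day 0 libraries are among those that chose the locus, so it is description.

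Gm46332 in R9 OKMS went from 1.35 CPM on day 0, 0 on days 2 and 4 and 2.73 on day 6 to 11.3 on day 10, 104 on day 14 and 254 on day 20. In OKS it was at 2.23 CPM on day 10, 15.7 on day 14 and 193 on day 20. Both day 20 levels lay above the 40.7 and 41.0 CPM of the R9 ESC libraries. The change over days passed (largest difference 6.12, limma adjusted p = 0.00195), but not without day 20 (adjusted p = 0.0645).

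novelGene_3155 first appeared in R9 OKMS on day 14 at 3.17 CPM and reached 4.93 on day 20, and in OKS it was at 0 up to day 14 and at 15.1 CPM on day 20. Its largest difference from day 0 was 3.29.

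Gm3764, the miR-9 host, fell early in OKMS and slowly in OKS. R9 OKMS libraries held 413 CPM on day 0, 52.0 on day 2, 6.26 on day 4, 4.09 on day 6, and 1.23 to 2.11 from day 10 on. The OKS libraries held 271 CPM on day 0, then 72.2, 52.4, 40.2 and 53.5 on days 2, 4, 6 and 10, then 19.0 on day 14 and 2.87 on day 20. OKS therefore kept a plateau of 40.2 to 72.2 CPM through day 10 that OKMS did not show. The fall over days passed (largest difference −6.84, limma adjusted p = 0.0100).

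The Sox9 antisense locus in R9 OKMS was at 18.8, 12.4, 10.4, 9.55 and 12.7 CPM on days 0, 2, 4, 6 and 10, then at 1.06 on day 14 and 0 on day 20. In OKS it was at 43.8, 36.1, 69.6, 50.9 and 58.0 CPM over the same days, then at 12.4 on day 14 and 0.719 on day 20. In both R9 lines the lowest levels came on days 14 and 20. R10 OKMS libraries were low sooner, at 197, 164, 38.3, 10.6, 28.0 and 1.48 CPM on days 0, 2, 4, 6, 10 and 18, and R10 OKS libraries held 226, 291 and 254 CPM on days 0, 2 and 6 and 0 on day 18. The call (largest difference −4.51, limma adjusted p = 0.00222) was lost without day 20 (adjusted p = 0.0606). These levels and the call are of gene CPM. The only transcript of the locus was at 48.2 TPM in R9 OKMS and 487 in R10 OKMS on day 0. It was at 0 in both OKMS lines from day 2 on. In OKS it was at 0 on day 2 in both chemistries, at 206 TPM on day 4 in R9 and at 775 on day 6 in R10. It was at 0 again from day 14 in R9 and on day 18 in R10.

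The Ncan antisense locus went in R9 OKMS from 10.8 CPM on day 0 to 4.52, 2.09, 0 and 2.81 on days 2, 4, 6 and 10, and to 0 on days 14 and 20. OKS held 16.9 CPM on day 0, 6.69 to 10.7 from day 2 to day 10, 3.31 on day 14 and 0 on day 20. These are few reads, and the test over days did not pass (−3.86, limma adjusted p = 0.0727). It passed in 5 of 13 other settings, among them edgeR (adjusted p = 0.00577), a minimum of 5 CPM (0.0416) and median centring (0.0468). Also among these is the R10 fit, whose day 0 libraries helped choose the locus, so that pass is description.

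The Ahnak antisense locus had a time course of its own shape. In R9 OKMS it went from 0 on day 0 to 57.6 CPM on day 2, 87.6 on day 4 and 121 on day 6, then down to 80.2, 44.3 and 36.9 on days 10, 14 and 20. In OKS it went from 0 to 44.1 on day 2, stood at 201 to 202 on days 4, 6 and 10, and came down to 172 and 61.1 on days 14 and 20. Its highest levels were thus in the middle of the course, above the 17.7 and 36.0 CPM of the ESC libraries, and its largest difference from day 0 was 7.30. Ahnak itself went from 0 and 1.69 CPM on day 0 to 35.0 and 30.8 on day 2, and mesenchymal markers summed to 82.5 to 2468 CPM over the R9 libraries in FBS-LIF with doxycycline against 73.6 to 89.4 in NPCs. Their part in the result was not tested.

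Of the 5 loci that R10 named, 3 passed over days, where 10.7% of 19357 genes did. In R10 all 5 were called, where 9.04% of 17487 genes were called, but their day 0 libraries are among those that chose the loci.

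The order of events can be put as the earliest sampled day from which a level stayed past the midpoint between the NPC and ESC means of its own chemistry. In R9 OKMS that day was 2 for the Ahnak antisense locus, 4 for Gm3764, 10 for 1700097N02Rik and Gm46332, and 14 for novelGene_3155 and the Sox9 and Ncan antisense loci. In R9 OKS it was 2 for the Ahnak antisense locus, 14 for Gm46332 and 20 for the other 5. Hence 6 of the 7 came later in OKS than in OKMS, and the Ahnak antisense locus came at the same sampled day. The R9 midpoints of novelGene_3155 (1.06 CPM) and the Ncan antisense locus (2.53 CPM) are worth a few reads at most. A 0 or a low count there does not place the level firmly on 1 side. The share of all genes that came later in OKS was not computed. In R10 OKMS the days were 2 (Ahnak antisense), 4 (Gm3764), 6 (Ncan antisense) and 18 (the other 4). In R10 OKS, sampled on days 2, 6 and 18 only, they were 2 for the Ahnak antisense locus and 18 for Gm46332, Gm3764 and the Sox9 and Ncan antisense loci, while 1700097N02Rik and novelGene_3155 had not passed the midpoint by day 18. These are descriptions of single libraries, by gene CPM. For the Sox9 antisense locus in OKMS, transcript TPM was at 0 from day 2 on in both chemistries.

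The R10 levels of the 2 loci that lagged show this. On day 18 1700097N02Rik was at 22.3 CPM in OKMS and 11.5 in OKS, against at least 118 CPM in every R10 ESC library. novelGene_3155 was at 20.8 and 7.68 CPM, against at least 145. Gm46332 was at 40.1 and 122 CPM, and 122 lay just under its lowest ESC library, at 125.

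Set day by day in R9, with the 6 days as pairs, OKMS cells held less of the progenitor loci than OKS cells. The p-values measure spread over days, and not between independent lines. Day 0 was not in this fit. There the OKMS library was lower than the OKS library for the Sox9 antisense locus (18.8 against 43.8 CPM). It was also lower for the Ncan antisense locus (10.8 against 16.9 CPM), and higher for Gm3764 (413 against 271 CPM). Gm3764 differed by −2.39 ± 0.48 on the log2 scale (limma, adjusted p = 0.00372), and was lower in OKMS on all 6 days. The Sox9 antisense locus differed by −2.0 ± 0.35 (adjusted p = 0.00216). The Ncan antisense locus differed by −1.52 ± 0.47 (adjusted p = 0.0296), a call that was lost in 7 of 12 other settings, among them edgeR's quasi-likelihood test (adjusted p = 0.0563) and fits without days 4, 6 or 14. The median of all genes was −0.11 in this comparison.

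Of 5 loci tested, 3 were called, all lower in OKMS, where 18% of 14277 genes were called and 11% were called lower. The Ahnak antisense locus differed by −0.92 ± 0.25 (adjusted p = 0.0153), under the fold that a call needed. Gm46332 differed by 0.98 ± 0.49 (adjusted p = 0.152), and by 1.53 in edgeR, where it was called higher in OKMS (adjusted p = 0.03). The sense genes stood likewise, Sox9 at −1.60 (adjusted p = 0.00647) and Ncan at −1.87 (adjusted p = 0.00102). The 3 R10 day pairs gave 0 of 6 loci and 0% of genes called by limma, with 2389 genes at an unadjusted p under 0.05. Gm3764 was at −2.52 there (adjusted p = 0.25).

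The start of the course was compared with WT cells in the same medium, to set apart the factors from the medium and doxycycline. Gm3764 in WT cells was at 345 and 69.5 CPM on day 2 in R10, against 1024 and 347 CPM in the same-numbered NPC libraries, and at 54.5 CPM in OKMS and 121 in OKS. The WT values bracketed the OKS value, and the OKMS value lay below both. The Sox9 antisense locus was at 552 and 419 CPM in WT, 164 in OKMS and 291 in OKS, so both factor libraries lay below both WT libraries. The difference was −1.14 ± 0.43 (limma, adjusted p = 0.253).

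None of the 4 loci tested was called for the factors at day 2, where 0.74% of 15402 genes were called and 2344 had an unadjusted p under 0.05 (edgeR called 334 genes). The gene level of the Ahnak antisense locus was high without factors too. It was at 24.7 and 40.8 CPM in WT on day 2 against 0 and 1.43 in the R10 WT NPCs. In R9 it was at 90.5 against 2.67 and 3.87 CPM. Its transcripts, however, were at 0 TPM in both R10 WT libraries of day 2 and in R10 OKMS. They were at 44.5 TPM in R10 OKS and at 9.86 in R9 WT on that day. The WT medium comparison in R10 called 1 of 4 loci, this one, and 26.8% of 14688 genes. Gm3764, lower in both same-numbered pairs, was at −1.93 (limma, adjusted p = 0.141), and was called with the replicate number as a block (2.32e-07) and under median centring (0.0473). The Ahnak antisense call was lost on leaving out any one of the 4 libraries (limma, adjusted p from 0.0956 to 0.171), with log2 differences of 3.75 to 5.03 against 4.39 with all 4, and in 3 of those fits 0 genes were called. It shares its NPC libraries with the rule, so these counts are description. In R9, which has 1 WT library on day 2 and takes its spread from the 2 NPC libraries alone, the Ahnak antisense difference was 4.44 (adjusted p = 0.0962). That fit called 0 of 5 loci and 9.4% of genes. In the R10 comparison 2 of 4 astrocyte markers (Gfap and Aqp4) and 2 of 4 tested mesenchymal markers (Col1a1 and Acta2) were also called higher. The 4 astrocyte markers summed to 3057 and 1188 CPM in the WT libraries of day 2 against 42.6 and 93.3 CPM in the WT NPCs, and the 5 mesenchymal markers to 74.0 and 160 against 14.9 and 16.4 CPM. Their part in the result was not tested.

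**Figure D2:**
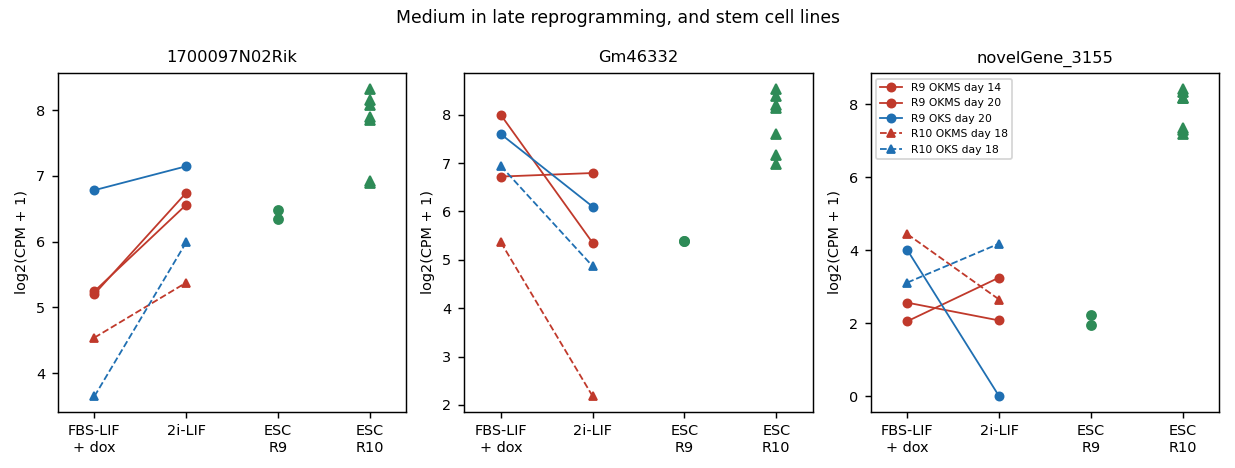
CPM of 1700097N02Rik, Gm46332 and novelGene_3155 in FBS-LIF with doxycycline and in 2i-LIF, joined for each pair of the same factor line, day and chemistry, with the stem cell libraries of R9 and R10 beside them. 1700097N02Rik goes up in all 5 pairs, and Gm46332 goes down in 4 of 5.

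Between FBS-LIF with doxycycline and 2i-LIF, the 2 annotated stem cell loci went opposite ways. The arms differ in medium and, as described above, in doxycycline, and these parts cannot be told apart. 1700097N02Rik went from 35.9 to 106 CPM (R9 OKMS, day 14), from 36.9 to 93.5 (R9 OKMS, day 20), from 109 to 141 (R9 OKS, day 20), from 22.3 to 40.6 (R10 OKMS, day 18) and from 11.5 to 62.6 (R10 OKS, day 18). It was higher in 2i-LIF in 5 of 5 pairs, by 1.28 ± 0.26 (limma with pairs, adjusted p = 0.00224). Within R9 the difference was 1.07 (adjusted p = 0.0250), and within R10, with 2 pairs, 1.59 (adjusted p = 0.168).

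Gm46332 went from 104 to 110, from 254 to 39.8, from 193 to 67.5, from 40.1 to 3.53 and from 122 to 28.2 CPM in the same pairs. It was lower in 4 of 5, by −1.87 ± 0.33 (limma, adjusted p = 0.000884), at −1.36 within R9 (adjusted p = 0.0377) and −2.63 within R10 (adjusted p = 0.0370). The opposite signs of the 2 loci held in both chemistries. Of 5 loci tested, these 2 were called, beside 12.3% of 14935 genes.

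The other 3 did not pass. novelGene_3155 was higher in 2 pairs and lower in 3, at −0.80 (adjusted p = 0.450). Gm3764, already at 0 to 2.87 CPM, was at −0.75 (adjusted p = 0.322). The Ahnak antisense locus was lower in 5 of 5 pairs by −0.75 (adjusted p = 0.0610). Dnah8, opposite 1700097N02Rik, was at 1.56 (adjusted p = 0.0215).

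Against stem cells, which grow in the same medium, the chemistries gave different pictures of the 2i-LIF cells. In R9 1700097N02Rik was at 93.5 to 141 CPM in 3 libraries and at 80.0 and 88.1 CPM in ESCs, all above (0.41 ± 0.20, limma, adjusted p = 0.456). In R10 it was at 40.6 and 62.6 CPM, all below the 118 to 321 CPM of the 7 ESC libraries (−2.05, description). The difference between the chemistries was not tested. Gm46332 in R9 was at 39.8 to 110 CPM in 2i-LIF cells and 40.7 and 41.0 CPM in ESCs (0.69 ± 0.33, adjusted p = 0.435). In R10 it was at 3.53 and 28.2 CPM against 125 to 371.

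novelGene_3155 in R10 was at 5.29 and 17.2 CPM in 2i-LIF cells against 145 to 345 CPM in ESCs. Its R9 libraries, with at most 7 reads in any of these, do not show a difference either way (−0.31 ± 0.82, adjusted p = 0.906). R9 called 0 of 5 loci and 0.711% of 15479 genes (limma; 1835 at an unadjusted p under 0.05), and R10 called 9.06% of 15880.

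Levels in the 3 stem cell lines of R10 are a description, since these libraries are among those that chose the loci. 1700097N02Rik in R10 was at 284 and 321 CPM in O4G, 238 and 269 in R1, and 120 and 118 in R1-Clone3. Gm46332 was at 371 and 335, 293 and 279, and 142 and 194 CPM in that order of lines, and novelGene_3155 at 290 and 345, 286 and 321, and 157 and 163 CPM. O4G had the highest mean and R1-Clone3 the lowest each time, though O4G and R1 overlapped for novelGene_3155.

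Over these 6 libraries the lines differed by up to 1.33 for 1700097N02Rik on the log2 scale, 1.08 for Gm46332 and 0.98 for novelGene_3155. The limma F test over lines called 2 of 4 loci, the former 2, and 3.78% of 14750 genes. The R1 library with no number in its label held 229, 125 and 145 CPM. With it among 7 libraries, no locus was called, and limma called 4 genes in all (0.0265%) with 1933 at an unadjusted p under 0.05. Its label does not say whether it was made with the numbered libraries, and it sets the lowest R10 ESC level of Gm46332 and novelGene_3155, which without it were 142 and 157 CPM. That library also held 3.73 CPM of Gm3764 where the other 6 held 0 to 0.519.

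**Figure D3:**
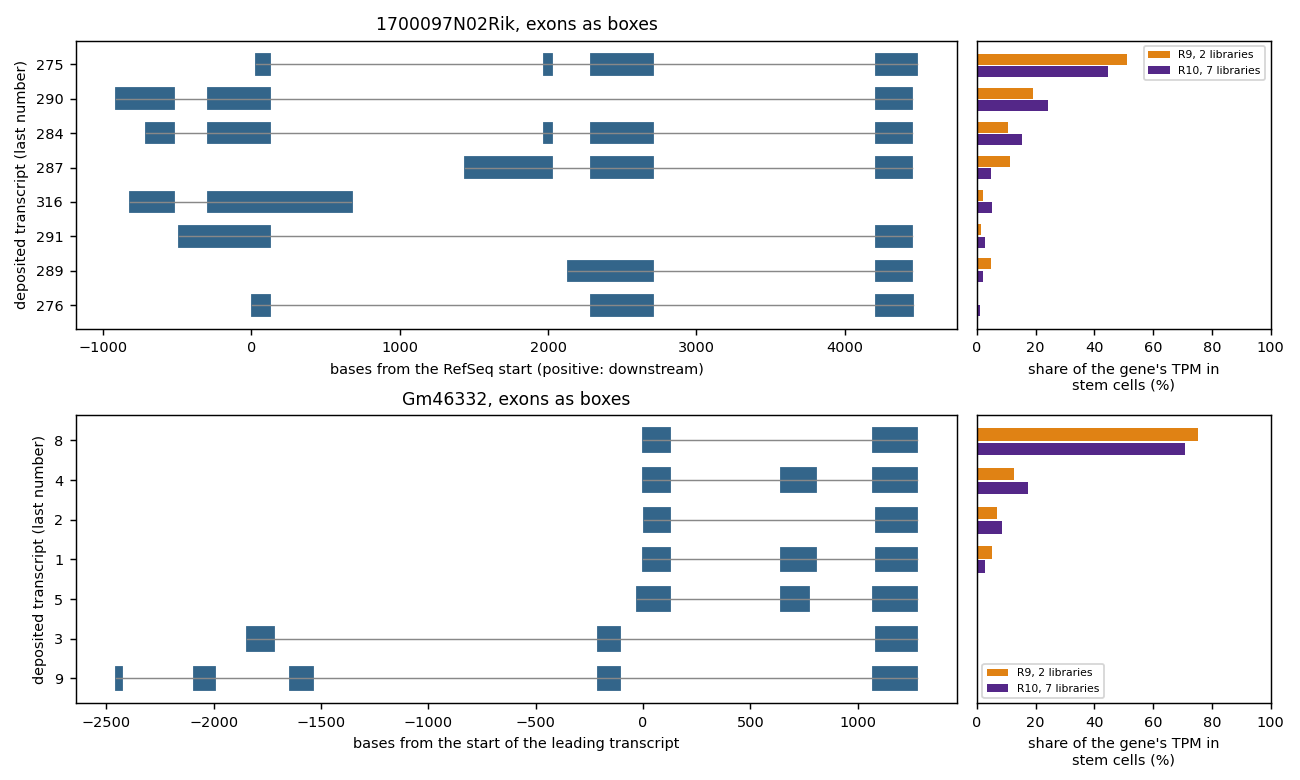
Exon models of 8 transcripts of 1700097N02Rik and 7 of Gm46332, with distance in bases from the RefSeq start of the former and from the start of the leading transcript of the latter, and bars for each transcript's share of its gene's TPM in stem cells (2 R9 and 7 R10 libraries). Transcripts that start upstream make up much of 1700097N02Rik, and 1 transcript of 2 exons leads Gm46332.

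Transcript structure was read from the authors' transcript TPM, which is per length, as a share within a locus. 1700097N02Rik had 8 transcripts of 2 to 5 exons and 779 to 1315 bases, all classed noncoding, of which 1 matched a known splice chain in full. The leading form, 831 bases in 4 exons, starts 34 bases after the RefSeq start at 30626905. That is also the GENCODE start of Glo1, at 30626871 on the same strand. The form made up 50.9% ± 7.65 of the locus in R9 ESCs (SD, n = 2) and 44.7% ± 4.57 in R10 ESCs (n = 7). Another 4 transcripts start 484 to 910 bases upstream, and the promoter window printed above lies inside one of their exons.

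These upstream forms made up 28.6% and 38.2% of the locus in the R9 ESC libraries and 40.5% to 52.2% in R10. They were at 52.2% in both O4G libraries, 40.5% to 47.2% in R1 and 42.4% and 41.6% in R1-Clone3. In 2i-LIF cells they were at 40.3% to 46.8% in R9 and 55.8% and 55.9% in R10. On the last day in FBS-LIF they were at 31.5% and 39.8% (R9) and at 46.4% and 61.9% (R10). In each of these libraries, reprogrammed or stem cell, both start regions were in use. The R10 libraries of day 2 to day 10 in which the gene was seen, with 1 to 4 reads each, showed only one of them at a time.

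Gm46332 had 8 transcripts of 309 to 534 bases that share 1 end. The leading form joins a 127-base exon to a 203-base exon at the junction printed above, 330 bases in all, and starts at 4553817, which is 15756 bases downstream of the RefSeq start at 4569573. No deposited transcript starts within 100 bases of that RefSeq position. The form made up 75.4% ± 2.20 of the TPM in R9 ESCs and 71.0% ± 2.78 in R10 ESCs.

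Over libraries with at least 20 reads, the middle exon, whole or in part, was included in 20.4% ± 2.68 of Gm46332 TPM in R10 ESCs (n = 7, 17% to 24.2%). R9 ESCs were at 15.1% and 20.7%, and R9 2i-LIF cells at 10.1% to 17.7%. Libraries in FBS-LIF were at 18% to 19.8% in R9 and at 14.4% and 20.9% in R10. Some transcripts use an acceptor 15 bases further on in the last exon, 11.3% ± 1.80 of TPM in R10 ESCs. In progenitors the leading form was at 0 in both chemistries. There 1 transcript that starts 13184 bases upstream of the RefSeq start carried 90.3% of the summed TPM in R10 (6 reads in 4 libraries) and 32.3% in R9 (4 reads in 4 libraries), and downstream starts carried 67.7% in R9.

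Gm3764 was the most varied locus, with 81 transcripts of 2 to 10 exons and 602 to 7049 bases, from 37 starts to 11 ends. The authors' table classes 48 of the 81 as noncoding and the others as coding. Of these, 47 start within 100 bases of the RefSeq start at 88214482, 24 downstream and 10 upstream. In NPCs the 47 made up 51.5% ± 4.45 of TPM in R9 and 58.1% ± 5.90 in R10 (SD, n = 4 each), and the downstream starts 46.5% ± 5.29 and 34.5% ± 1.77. The transcript with the most TPM over all libraries starts 12594 bases downstream and made up 21.1% ± 13.8 in R9 and 8.38% ± 2.36 in R10.

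No exon of Gm3764 contained the miR-9 hairpin. The hairpin lies in an intron of 56 of the 81 transcripts, while 23 start after it and 2 end before it. Intron-spanning forms made up 51.5% of summed NPC TPM in R9 and 59.2% in R10, and those that start after the hairpin 48.5% and 34.8%. A sizeable share of Gm3764 TPM was thus assigned to transcript models that do not reach across the hairpin. Whether these models start at true RNA starts or come from reads cut short was not tested. The microRNA itself was not measured by these libraries.

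novelGene_3155 has 1 transcript of 3123 bases in 2 exons (2276 and 847) on chromosome 10 at 74714783 to 74719966, minus strand. It lies between genes, 65046 bases from the end of Pcdh15 and 100756 bases from the pseudogene Gm7034. The authors' table classes it as coding, so its label as noncoding RNA does not follow from that table. It was the locus on which the chemistries differed most in stem cells, 2.84 and 3.72 CPM in R9 against 145 to 345 CPM in R10, while Gm46332 was at 40.7 and 41.0 against 125 to 371.

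Because oligo-dT can prime inside A-rich stretches of a transcript, the 20 genomic bases after each unannotated end are shown for 3 loci.
novelGene_3155 (chr10:74714763-74714782, minus strand): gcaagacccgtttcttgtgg
novelGene_Ahnak_AS (chr19:9017290-9017309, minus strand): ggccccttgacaccgatatc
novelGene_Sox9_AS (chr11:112785124-112785143, minus strand): tcgctgctcagcgtggtgag
A made up 15%, 20% and 10% of these bases, and 15% after the Ncan antisense end. These bases bear on priming at these ends only. They cannot show whether reads of the antisense loci were given the right strand. The authors' table marks none of the 4 unannotated loci as template switching by the reverse transcriptase.

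**Figure D4:**
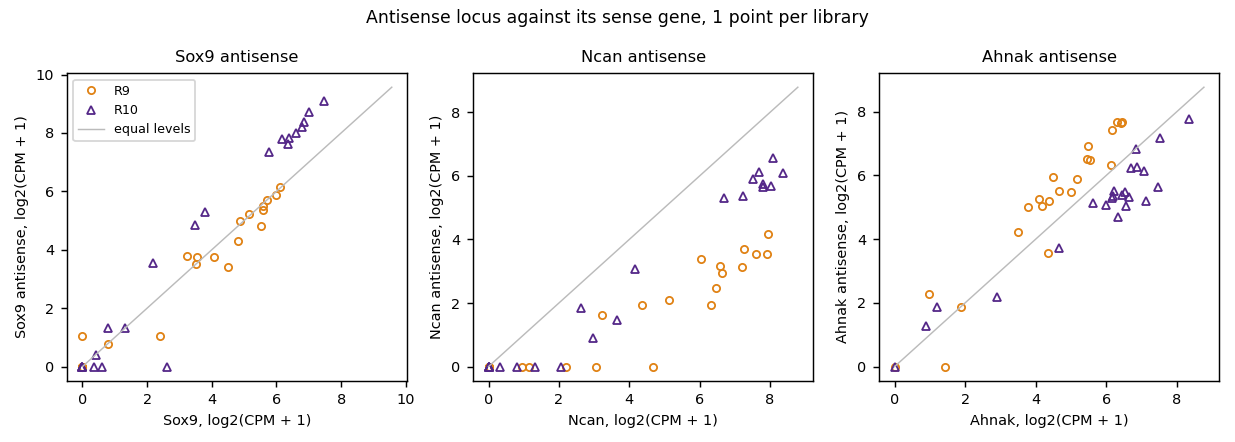
Level of each antisense locus against its sense gene, both as log2(CPM + 1), with 1 point per library (R9 circles, R10 triangles) and a grey line where both are equal. For Sox9 and Ncan the R10 points lie higher against the sense gene than the R9 points, and for Ahnak they lie lower.

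Each of the 3 antisense loci has exon sequence on a last exon of its sense gene. For Ahnak this is the 17498-base last exon of 1 GENCODE transcript (chromosome 19, 9001699 to 9019196), and other Ahnak transcripts end elsewhere. Both exons of the Sox9 antisense transcript (800 and 54 bases) are inside the last exon of Sox9, with 133 and 54 bases in its coding sequence. The main Ncan antisense transcript (1305 bases, 3 exons, chromosome 8, plus strand) has its first 2 exons, 828 and 383 bases, wholly in the noncoding part of the last exon of Ncan. Its remaining exon, 94 bases at 70126144 to 70126237, lies past the GENCODE start of Ncan at 70120873. In the authors' deposited annotation, however, Ncan starts at 70126210, inside this exon. At the other side, the antisense transcript starts at 70093087, close to the end of Ncan at 70093085. The main Ahnak antisense transcript (1903 bases, chromosome 19, minus strand) has 1883 bases in the Ahnak exon named above, 1012 of them coding. Its remaining exon, 20 bases at 9051984 to 9052003, lies outside that Ahnak exon. Whether the counting used the strand of a read is not given in the sources used here, so reads of sense and antisense RNA may not be told apart.

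Each antisense locus followed its sense gene across libraries. Pearson's r of log2(CPM + 1), over 22 R9 and 23 R10 libraries that share conditions, was 0.978 and 0.980 for Sox9, 0.916 and 0.982 for Ncan, and 0.958 and 0.963 for Ahnak. Sox9 itself was at 26.9 to 47.2 CPM in R9 NPCs and 0 in ESCs, and Ncan at 145 to 245 CPM and at 0 and 0.931. Their differences between R9 ESCs and NPCs were −5.19 and −7.10 on the log2 scale, and that of Ahnak was 2.87.

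The ratio of antisense to sense reads, in libraries with at least 20 sense reads, set the chemistries apart. The R10 libraries include NPC libraries that chose the Sox9 and Ncan antisense loci, so these ratios are description. For Sox9 it ran from 0.609 to 1.10 (median 0.929, 9 libraries) in R9 and from 2.41 to 3.30 (median 2.86, 9 libraries) in R10, with no overlap. For Ncan it ran from 0.0357 to 0.147 (median 0.0682, 11 libraries) and from 0.195 to 0.377 (median 0.269, 9 libraries), also with none. For Ahnak the order was the reverse, 1.16 to 2.83 (median 2.13, 13 libraries) in R9 and 0.258 to 0.981 (median 0.521, 19 libraries) in R10.

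In conditions sequenced by both chemistries, other than NPCs and ESCs, the Sox9 antisense locus was higher in R10 by 2.27 ± 0.32 (limma, adjusted p = 4.85e-05) and the Ncan antisense locus by 2.04 ± 0.43 (adjusted p = 0.00171). Their sense genes differed by 0.63 (Sox9, adjusted p = 0.202) and 0.27 (Ncan, adjusted p = 0.497). For Ahnak the sense gene was the one that differed, by 1.5 (adjusted p = 1.23e-06), and the antisense locus was at −0.04 (adjusted p = 0.916). Of 4 loci tested, 2 were called higher in R10, where 13.7% of 14794 genes were called and 7.93% were called higher. These 2 were chosen from R10 levels, which can favour loci that R10 reads more of, so the calls are description. R9 and R10 differ in RNA input, amplification and flow cell, which cannot be told apart here.

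Gene counts and transcript TPM did not always go together for these loci. Among libraries with at least 20 reads of the Sox9 antisense gene, its transcript was at 0 TPM in 1 of 8 in R9 and 4 of 11 in R10, in one of them with 780 reads. The Ahnak antisense transcripts were at 0 in 2 of 16 and 3 of 18. For the other 5 loci no such library was found.

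The neighbours of the remaining loci were mixed. Dnah8, opposite 1700097N02Rik, was at 14.2 and 14.9 CPM in R9 ESCs and 0 to 3.37 in NPCs (3.12, limma adjusted p = 0.0104), with r to 1700097N02Rik of 0.860 in R9 and 0.933 in R10. Glo1, which shares its strand, was level between R9 ESCs and NPCs (0.01) and had r of −0.471 and −0.541. AW047730, beside Gm3764, was at 1.35 to 6.75 CPM in R9 NPCs and 0 in ESCs (−2.10, limma adjusted p = 0.0228). On the other side of Gm3764, Rhbg, an ammonium transporter, ran opposite to it (r −0.858 and −0.832).

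The genes whose levels were most like each locus over the 22 R9 libraries were taken from 18398 candidates, with the genes that overlap the locus, among them the sense genes, left out. Their r in R10 is given beside. For 1700097N02Rik they were Zfp992, a zinc finger gene (0.986, R10 0.854), Rhbg (0.986, R10 0.960) and Abcb1a, a drug efflux pump (0.985, R10 0.959). For Gm46332 they were Acer2, a ceramidase (0.959, R10 0.904), Pla2g1b, a phospholipase (0.949, R10 0.930) and novelGene_Mmp3_AS (0.948, R10 0.885). For novelGene_3155 the closest was Adm2, a peptide hormone gene (0.962), with an r of only 0.431 in R10.

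For Gm3764 the closest were Nsg1, of neuronal endosomes (0.984, R10 0.927), Ptprz1, a receptor phosphatase of neural progenitors and glia (0.978, R10 0.966) and Rgs7bp (0.969, R10 0.942). For the Sox9 antisense locus they were Rbms3, an RNA-binding protein (0.966, R10 0.944), novelGene_Chst2_AS (0.965, R10 0.949) and Atp6v0e2, a proton pump subunit (0.965, R10 0.986). Ccser2 led for the Ncan antisense locus (0.954, R10 0.926) and B3gnt2, a glycosyltransferase, for the Ahnak antisense locus (0.928, R10 0.884). Libraries of one time course share conditions, so these r are descriptions.

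Other long noncoding RNAs with known ties to these cell states give a setting for the 7 loci. They were listed for those ties, with earlier results of these data known, so their direction between ESCs and NPCs is description. Of 15 linked to pluripotency, 13 were in the table and 12 could be tested between R9 ESCs and NPCs, where 11 were higher and 0 lower (median 4.86, against −0.07 for all genes tested, of which 17.6% were called higher). Lncenc1, a noncoding RNA of naive stem cells, was at 100 and 105 CPM in ESCs and 0 in the NPCs (6.70 ± 0.27, limma adjusted p = 2.98e-05), and Platr3 was at 50.3 and 63.4 against 0 (5.84 ± 0.28, adjusted p = 4.37e-05). Over days in R9, 4 of 13 passed, all higher, where 10.7% of all genes were called: Lncenc1, Platr3, Platr10 and Platr27. In 2i-LIF against FBS-LIF with doxycycline, 4 of 13 were higher (Platr3, Platr14, Tunar and Rian) and none lower, where 12.3% of all genes were called. Within the R9 pairs 2 of 13 were called (Platr3 and Tunar), and within the R10 pairs 1 (Platr3). In R9, Rian was lower in 2i-LIF cells than in ESCs (1.22 to 22.1 against 67.0 to 94.7 CPM). So were Meg3 (0 to 17.5 against 157 to 210) and Mirg (0 to 4.66 against 19.9 to 40.0). Platr3 was higher (72.0 to 125 against 50.3 to 63.4).

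Of 10 noncoding RNAs listed for their study in neural cells, of which Malat1 and Neat1 are found in many cell types, 5 were in the table and 3 were tested between R9 ESCs and NPCs, and 2 were lower in ESCs, where 18.4% of all genes were. Pantr1, transcribed beside the neural factor Pou3f3, was at 309 to 686 CPM in NPCs and at 0 in ESCs (−8.94 ± 0.35, limma adjusted p = 2.85e-05), near the size of the Gm3764 difference. Malat1, a nuclear RNA of most cells, was the other, and Neat1, an RNA of nuclear bodies, was at 1.44 (limma, adjusted p = 0.269). In R9 OKMS against OKS, 3 of 5 were lower in OKMS (Pantr1, Neat1 and Malat1), where 11% of all genes were. In the R10 pairs limma called 0 of 5, and 0% of all genes. Over days Pantr1 was called lower and Neat1 and Malat1 higher, of 5 tested, beside 10.7% of all genes.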

How the data were processed

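The CPM of each gene and the TPM of each transcript were computed by the authors and deposited for the whole series. Reads were aligned to mm10 with minimap2 2.24-r1122, per the submitters' processing notes, and the counting program's strand setting is not given in the sources used here. In the deposited gene table, 100% of CPM values above 0 were whole multiples of 1 read within 0.02 read, and depth is the sum of those recovered reads. Another 13 columns of that table match no sample and were not used. Exons come from the deposited filtered transcript annotation, and the percent of A after a transcript end from the deposited classification table.

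Comparisons used limma 3.58.1 in R 4.3.3 (trend) on log2(CPM + 1), after keeping genes at 1 CPM or more in as many libraries as the smaller group holds. P-values were two-sided and adjusted by Benjamini-Hochberg over all genes tested. A call needed an adjusted p under 0.05 and an absolute log2 difference of at least 1. Folds against groups at 0 used a floor of 3 reads over the group. Other settings tried were no filter, a filter at 5 CPM, a pseudocount of 0.25, quantile and median scaling, the quasi-likelihood test of edgeR 4.0.16 on the recovered reads, the other chemistry, a replicate block, and leaving out libraries. The models that compare groups or pairs were run on simulated data, and the F tests over days and over lines were not. The outcome of those runs is not given here. The comparison of chemistries outside NPCs and ESCs was added after seeing the data. The members and the gene lists were chosen with earlier results of these data known. The genes named are the members, the genes that overlap or flank them within 500 kb, the sense genes, the 3 most similar genes by R9 correlation, and listed noncoding RNAs. Motifs and microRNA sequences come from RefSeq tables of GRCm38.p6.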

Additional observations from a re-analysis of the deposited data

Results flagged for a closer look

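The R1 stem cell library of R10 whose label carries no number stood apart from the other 6 R10 ESC libraries, by a gap test within groups of 4 to 10 samples, in 3 loci. Gm3764 was at 3.73 CPM there against 0 to 0.519 CPM in the others. The Sox9 antisense locus was at 1.49 CPM against 0 to 0.328 CPM. The Ahnak antisense locus was at 12.3 CPM against 32.7 to 44.6 CPM. Gm3764 was at 1024 CPM in WT replicate 2 of the R10 NPC libraries, against 347 to 415 CPM in the other 3. These are 4 of 16 groups tested, 3 of them flagged through the same library. The gap test is set to mark about 1 in 20 groups by chance, which was not checked for groups mostly at 0.

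1700097N02Rik in 2i-LIF cells against stem cells had opposite signs in the chemistries, 0.41 in R9 with every 2i-LIF library above both ESC libraries, and −2.05 in R10 with both below all 7. This difference between the chemistries was not tested.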

How the results depend on the processing

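Counts of genes and loci called stayed within 1.5 times of the reported count, and midpoint days and shares near theirs, in 299 settings, and 47 moved further. Single loci kept their side of the threshold in 586 settings, lost the call in 26, gained it in 20 and changed sign in 2, which are 1700097N02Rik (0.41) and Gm46332 (0.69) in 2i-LIF cells against stem cells in R9. The cause of these changes was not tested, except that fewer libraries enter the fits within one chemistry.

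For WT medium, 2 loci were called under median centring and 2 with the replicate block, and R9 gave 1562 genes and 0 loci. Factors at day 2 called 74 genes at a pseudocount of 0.25, 181 at a minimum of 5 CPM, 29 under quantile scaling, 399 under median centring, 334 by edgeR and 0 in R9. The R9 time course called 4573 genes by edgeR. OKMS against OKS called 0 genes and 0 loci in the R10 pairs. The medium change called 1166 genes in the R9 pairs, and 188 genes and 1 locus in the R10 pairs. 2i-LIF cells against stem cells called 868 genes at a minimum of 5 CPM, 270 by edgeR, and 110 genes and 0 loci in R9. The stem cell lines gave 4 genes and 0 loci with 7 libraries. The chemistries differed in 5 loci by edgeR. The midpoint day became 6 for Gm3764 in R10 OKMS at a pseudocount of 0.25. Without asking that a level stay past the midpoint, it was 6 for the Sox9 antisense locus in R10 OKMS and 4 for the Ncan antisense locus in R9 OKMS. The leading Gm3764 transcript by R10 alone made up 12.9% in R10 NPCs.

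Leaving out libraries or days gave these ranges of genes and loci called: ESCs against NPCs 4038 to 5880 and 6 to 7, WT medium 0 to 1141 and 0 to 1, factors at day 2 0 to 115 and 0 to 0, time course 601 to 2423 and 2 to 6, OKMS against OKS 1686 to 3236 and 2 to 4, medium change 1210 to 1908 and 2 to 2, 2i-LIF cells against stem cells 985 to 1992 and 2 to 3, lines 343 to 475 and 1 to 3, and chemistries 1669 to 1780 and 2 to 2. The lowest time course counts, 601 genes and 2 loci, were without day 20. Where 1 library was left in a group, it was assumed to vary like the others.

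Replicate numbers were shared by the WT medium groups, with a correlation of deviations of 0.474 over 2 pairs, and by the stem cell lines (0.161, 0.073 and 0.131). The labels name no shared culture, so the samples share a number only. The replicate block gave 874 genes for the lines in place of 557, with 2 loci in both fits, and for WT medium 5605 genes in place of 3940, with Gm3764 called beside the Ahnak antisense locus. In R9, novelGene_3155 held at most 21 reads in a library and the Ncan antisense locus at most 10. The cause of these low counts was not tested.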
